A study of Danio rerio with 10 samples.

Results

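The genes described here are sart3 and 4 genes of proteins that sit on the U4/U6 di-snRNP, the RNA-protein particle in which U4 and U6 snRNA are base-paired: prpf3, prpf4, ppih and prpf31. They were chosen by name, as every probe set to which the platform annotation gives one of these 5 symbols and no other. All 5 genes were on the array, with 6 probe sets of the 15502 that are not controls; prpf3 has 2 probe sets and the others 1 each.

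The samples are pools of whole zebrafish embryos, measured on 10 Affymetrix arrays. All came from matings of fish heterozygous for earl grey (egy), allele cz3, in an AB/WIK background and were raised at 28 °C, so the controls come from the same carrier parents. Embryos were sorted by shape into egy mutants, in which the zebrafish counterpart of human p110, the gene sart3, is defective, and siblings of normal appearance. The 4 groups are siblings on day 3 after fertilization (2 pools), mutants on day 3 (2 pools), siblings on day 5 (3 pools) and mutants on day 5 (3 pools). The labels call the siblings wild type. Carriers of a recessive allele look normal, and the sibling pools may hold them.

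In the spliceosome, U6 snRNA is unwound from U4 snRNA during activation, when U4 is released. U6 is set free without U4 after splicing, so the U4/U6 pair has to be rebuilt before each further round. The SART3 protein, also called p110 in human cells, binds free U6 snRNA and the LSm ring on its tail and helps U6 to pair again with U4; it does not stay in the finished tri-snRNP. In human cells PRPF3 and PRPF4 form a complex with the cyclophilin PPIH on the paired U4/U6 RNA, and PRPF31 binds a stem-loop of U4 and bridges to PRPF6 of the U5 snRNP. Mutations in human PRPF3, PRPF4 and PRPF31 cause retinitis pigmentosa, a degeneration of photoreceptors.

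Values are MAS5 signals, a linear brightness per probe set that the authors had scaled to the same mean on every array. A signal under 232, the limit that the lowest 25% of probe sets by mean fall under, is called low below. The arrays' median signals lay between 596 and 671, and rank correlations between arrays of one group between 0.957 and 0.983. The labels conflict for 3 pools. The strain label of sibling replicate 2 of day 3 calls it mutant, although its array correlated at 0.983 with the other day 3 sibling and at most at 0.97 with a day 3 mutant. Sibling replicate 2 and mutant replicate 3 of day 5 have a source name that gives day 4, and the series' design text gives day 4 for the later time, while the titles and the treatment protocol (72 and 120 hours) give day 5. Ratios of the 3′ to the 5′ GAPDH control signal, a measure of RNA integrity, ran from 1.68 to 1.88 in the day 3 groups and from 1.27 to 1.5 in the day 5 groups, and mutants and siblings of a day overlapped. The same ratio of acta1 went the other way, from 1.76 to 2.25 on day 3, from 5.28 to 9.24 in day 5 siblings and from 3.9 to 5.99 in day 5 mutants. Its part in the differences between days, and between mutants and siblings of day 5, was not tested.

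sart3 fell in mutants, while prpf3, prpf4 and prpf31 rose about 4 to 6 fold over both days. On day 3 alone these 3 rising genes were already 3.51 to 5.36 fold higher. Of the 5 genes, 4 had a probe set bright enough to test, and all 4 were called over both days by their brighter probe set (limma, adjusted p under 0.05): 3 higher, against 8.26% of the 7287 genes tested, and 1 lower, against 9.4%. On day 3 alone the same 3 genes were called higher, against 1.44% of genes, and none lower, against 0.947%. On day 5 alone 3 were called higher, against 7.68%, and 1 lower, against 7.92%. The mutant and sibling pools of a day did not overlap for any of these 4 probe sets on either day, as for 8.03% of all 11626 probe sets tested that were higher and 10.4% that were lower on both days. The second probe set of prpf3 is in none of these counts, since it passed the filter only through its mutant pools. The median of all probe sets was −0.021 on the log2 scale over both days, and the 4 tested genes, each by its brighter probe set, had a median of 2.18.

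The signal of sart3 in the sibling pools was 2526 and 2516 on day 3 and 1771, 2586 and 2036 on day 5. In the mutant pools it was 462 and 648 on day 3 and 105, 132 and 809 on day 5. Mutants and siblings did not overlap on either day, and the highest mutant pool, replicate 3 of day 5, stood under the lowest sibling pool of either day. The log2 difference was −2.45 ± 0.36 (SE) over both days (limma adjusted p = 5.8e-04), and its rank by size was 18 among the falls of 11626 probe sets. On day 3 it was −2.08 ± 0.56 (limma adjusted p = 0.083, not called), and on day 5 −2.82 ± 0.45 (limma adjusted p = 1.3e-03). The day 3 call rests on the spread shared with day 5, since the same difference had an adjusted p of 9.2e-05 without mutant replicate 3 of day 5, and of 0.031 with the replicate number as a block. The 2 lowest day 5 mutant signals are low, so the size of the fall is uncertain. Where the probes lie relative to the cz3 mutation is not known from the files.

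**Figure D1:**
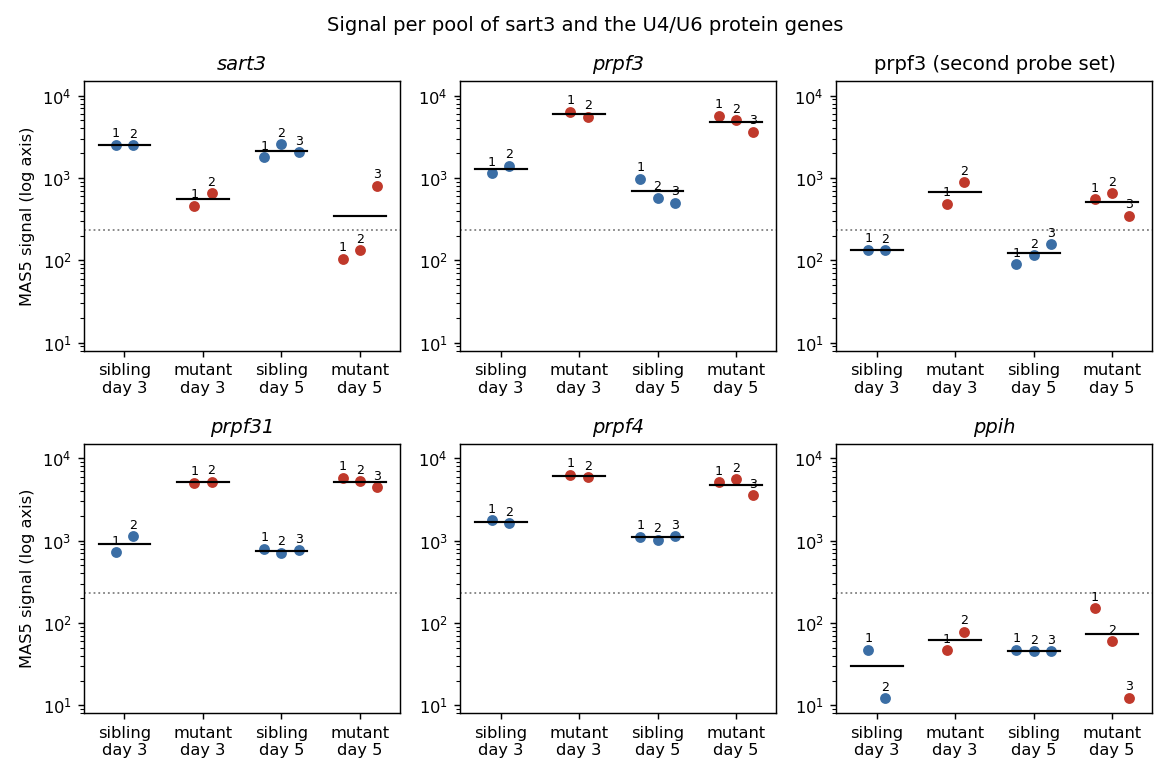
MAS5 signal (log axis) of each pool for the 6 probe sets, in sibling (blue) and mutant (red) pools of day 3 and day 5; numbers are replicates, black lines are group means, and the dotted line is the filter limit of 232. In mutants sart3 lies below every sibling pool, both prpf3 probe sets, prpf31 and prpf4 lie above every sibling pool, and ppih lies under the limit in all 10 pools.

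prpf3 encodes the protein that lies along the U4/U6 duplex. Its brighter probe set gave 1148 and 1407 in day 3 siblings against 6338 and 5534 in day 3 mutants. On day 5 it gave 977, 576 and 503 in siblings against 5695, 4986 and 3641 in mutants. Every mutant pool was thus far above the siblings of its day, with no overlap. The log2 difference was 2.16 ± 0.26 on day 3 (limma adjusted p = 8.1e-04) and 2.72 ± 0.21 on day 5 (limma adjusted p = 6.1e-06), which is 4.48 and 6.58 fold on the log2(signal + 65) scale.

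The second prpf3 probe set was dimmer. It gave 135 and 132 in day 3 siblings against 486 and 883 in mutants, and 90.4, 115 and 158 in day 5 siblings against 549, 650 and 348 in mutants. All its mutant pools lay above all its sibling pools, which were low throughout. Having passed the filter through the mutants, this probe set had to differ between the groups, so its log2 differences of 1.86 on day 3 and 1.62 on day 5 are a description and add no support to those of the brighter one.

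prpf4 encodes the partner of Prpf3 in the U4/U6 particle, a WD-repeat protein. The sibling pools gave 1758 and 1625 on day 3 and 1120, 1028 and 1127 on day 5. The mutant pools gave 6338 and 5878 on day 3 and 5086, 5530 and 3551 on day 5. The sibling pools of a day lay close together, and the lowest mutant pool of all, replicate 3 of day 5, was still above the highest sibling pool of either day. The log2 difference was 1.81 ± 0.18 on day 3 (limma adjusted p = 1.7e-04) and 2.03 ± 0.14 on day 5 (limma adjusted p = 3.9e-06).

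ppih encodes the cyclophilin, a peptidyl-prolyl isomerase, that rides on Prpf4 in this complex. Its probe set was low in all 10 pools: 47.4 and 12.3 in day 3 siblings, 46.6 and 78.3 in day 3 mutants, 47.7, 45.3 and 45.6 in day 5 siblings and 151, 60.5 and 12.4 in day 5 mutants. Mutants and siblings overlapped on day 5, and also on day 3. It was left out by the filter, and without a filter the log2 difference was 0.32 ± 0.25 over both days (limma adjusted p = 0.49). With all 10 signals low, it is uncertain whether this probe set could show a change of the size seen in its partners. Nothing is known here of the transcript itself.

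prpf31 encodes the protein that holds the U4 stem-loop and joins U4/U6 to U5. Day 3 siblings gave 719 and 1126 and day 3 mutants 5058 and 5174. Day 5 siblings gave 800, 712 and 764 and day 5 mutants 5816, 5244 and 4469. The lowest mutant pool was well above the highest sibling pool, and the mutant pools of day 3 nearly coincided. The log2 difference was 2.42 ± 0.18 on day 3 (limma adjusted p = 6.1e-05) and 2.66 ± 0.15 on day 5 (limma adjusted p = 1.2e-06), 5.36 and 6.33 fold. Over both days it was 2.54 ± 0.12, with rank 6 among the rises of 11626 probe sets; the brighter prpf3 probe set had rank 7 and prpf4 rank 21.

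Sibling replicate 2 of day 3, which one label calls mutant, lay with its sibling partner at sart3, prpf3, prpf31 and prpf4. Counted as a mutant, it left 1 sibling pool on day 3 and no member was called on that day (limma adjusted p = 0.96 for prpf31, 2.02 ± 0.60); over both days sart3, the brighter prpf3 probe set, prpf31 and prpf4 were still called.

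**Figure D2:**
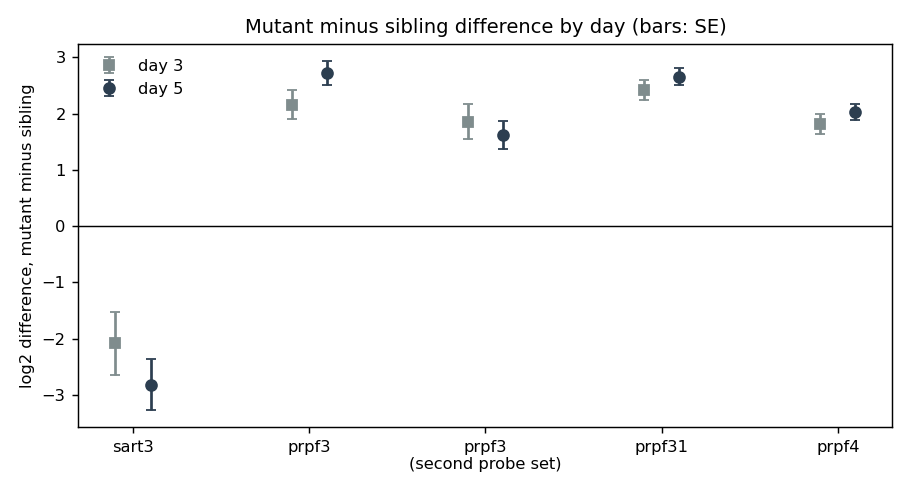
Log2 difference between mutants and siblings on day 3 (squares) and day 5 (circles) for 5 probe sets, with standard errors from the limma model; the second prpf3 probe set passed the filter only through its mutant pools. sart3 lies near −2 to −3 and the 4 others between 1.62 and 2.72; the standard error of sart3 is the widest.

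The sizes of the differences were compared between genes within each array, for 6 pairs of the 4 tested genes, each by its brighter probe set. An exact two-sided permutation test exchanged the mutant and sibling labels within each day, and 0.017 is the smallest p it can give. Each of the 3 pairs with sart3 differed at that smallest p (adjusted p = 0.02 over 6 pairs), by −4.37 to −4.99 on the log2 scale. The rise of prpf31 exceeded that of prpf4 by 0.62 (exact permutation p = 0.017, adjusted p = 0.02), and that of prpf3 exceeded that of prpf4 by 0.52 (exact permutation p = 0.017, adjusted p = 0.02). The rises of prpf3 and prpf31 differed by −0.10 (exact permutation p = 0.53), which does not show that they are equal. The excess of prpf3 over prpf4 depends on the probe set: through the second prpf3 probe set the difference was −0.18, with all sibling pools low. The excess of prpf31 over prpf4 did not pass without either day 3 mutant pool (exact permutation p = 0.033 and 0.05), and that of prpf3 did not pass without any one of the mutant pools (exact permutation p from 0.05 to 0.067). On day 5 same-numbered mutant and sibling pools deviated together, and with the labels exchanged only within those pairs the smallest p was 0.042. All 5 pairs reached it, and none passed after adjustment (exact permutation, adjusted p = 0.05), so the order of the rises is not settled in a paired test.

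Between the days the mutant minus sibling difference was not shown to change for any member. The day 5 difference minus the day 3 difference was −0.74 ± 0.72 for sart3, 0.55 ± 0.34 for prpf3, −0.24 ± 0.40 for its second probe set, 0.24 ± 0.24 for prpf31 and 0.21 ± 0.23 for prpf4. By limma 0 of these 5 were called, 0 had an unadjusted p under 0.05, and over all probe sets 0 were called and 771 had an unadjusted p under 0.05. Without mutant replicate 3 of day 5, sart3 changed by −1.49 ± 0.27 between the days (limma adjusted p = 0.039).

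In the siblings themselves, prpf3 and prpf4 were lower on day 5 than on day 3, by −0.88 ± 0.24 (limma adjusted p = 0.023) and −0.60 ± 0.16 (limma adjusted p = 0.022) on the log2 scale, with no overlap of pools. In that comparison 10.1% of all probe sets were called lower and 8.39% higher, and 30.7% were lower with no overlap. sart3 (−0.25 ± 0.51), prpf31 (−0.23 ± 0.17) and the second prpf3 probe set (−0.11 ± 0.28) were not called between the sibling days. Both calls were weak. That of prpf3 was lost without sibling replicate 1 or 2 of day 3 or sibling replicate 2 or 3 of day 5 (adjusted p from 0.066 to 0.2), and that of prpf4 without any one of sibling replicates 1 and 2 of either day (adjusted p from 0.055 to 0.14). In mutants no member was called between the days by limma, against 8.57% of all probe sets called higher and 10.4% called lower. An unadjusted limma p under 0.05 was reached by 1 of 5 member probe sets and by 3823 of all 11626. The 1 member is prpf4, whose day 5 mutant pools all lay under the day 3 ones (−0.39 ± 0.16, limma adjusted p = 0.11), as 23.3% of all probe sets were. For sart3 the mutant days differed by −0.99 ± 0.51 (limma adjusted p = 0.2), and by −1.75 ± 0.20 without mutant replicate 3 of day 5 (limma adjusted p = 4.6e-04).

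By level, the 4 groups of prpf3 and prpf4 therefore ran from day 5 siblings through day 3 siblings to both mutant groups, whose order was not settled by the test. For prpf31 the 2 sibling groups did not differ beyond their spread, nor did the 2 mutant groups. For sart3 the order of the means was day 5 mutants, day 3 mutants, day 5 siblings and day 3 siblings, and neighbours of one sort again did not differ beyond their spread. Day 5 mutants were also above day 3 siblings in every pool of prpf3, prpf4 and prpf31, for which the share over all probe sets was not computed. No siblings younger than day 3 were measured, and the part of stage in these levels was not tested. The comparisons share pools with one another and are not independent.

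The mutant pools themselves differed in sart3, so each of the other members was set beside it, pool by pool. From lowest to highest sart3 the pools are day 5 replicate 1 (105), day 5 replicate 2 (132), day 3 replicate 1 (462), day 3 replicate 2 (648) and day 5 replicate 3 (809). In that order prpf31 gave 5816, 5244, 5058, 5174 and 4469. The pools with least sart3 thus had the most prpf31 and the pool with most sart3 had the least, with the day 3 pools between them and out of order by a small step. In the same order prpf4 gave 5086, 5530, 6338, 5878 and 3551, and the brighter prpf3 probe set gave 5695, 4986, 6338, 5534 and 3641. For these the highest pool was a day 3 pool, so no single order by sart3 held over both days, but again the pool with most sart3 was the lowest. The second prpf3 probe set gave 549, 650, 486, 883 and 348, lowest in the same pool and highest in day 3 replicate 2.

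Relative to the sibling mean of the same day, the order of prpf4 came closer to that of sart3. The log2 difference from siblings was −3.68, −3.46, −2.29, −1.86 and −1.31 for sart3, and for prpf4 it was 2.16, 2.28, 1.87, 1.76 and 1.65 in the same pools. For prpf31 the same differences were 2.84, 2.69, 2.41, 2.44 and 2.46, so beyond the first 2 pools they hardly moved. For the brighter prpf3 probe set they were 2.99, 2.80, 2.26, 2.07 and 2.36. On this scale the pool with most sart3 was not the lowest for prpf31 or for that prpf3 probe set. It remained the lowest for prpf4 and for the second prpf3 probe set (1.74, 1.96, 1.47, 2.26 and 1.17). A pool with a 2.48-fold fall of sart3 thus still had prpf31 at 5.51 fold and prpf4 at 3.13 fold the sibling level on the log2(signal + 65) scale. With 5 mutant pools of 2 ages, no correlation coefficient was computed.

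**Figure D3:**
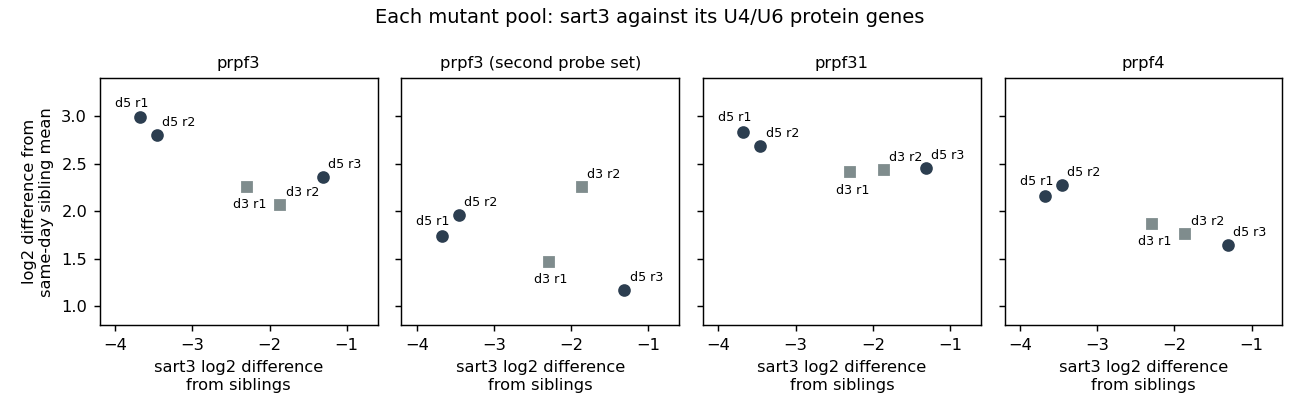
Each mutant pool (squares, day 3; circles, day 5; d and r give day and replicate) by its log2 difference in sart3 from the same-day sibling mean (x) and that of each other probe set (y). For prpf4 and for both prpf3 probe sets the day 5 pools with the largest fall of sart3, replicates 1 and 2, lie above replicate 3, and for prpf31 they do so by a smaller margin.

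Within day 5, mutant replicate 3 was higher than the mean of the other mutant pools by 2.26 on the log2 scale for sart3. It was lower by −0.54 for prpf3, −0.68 for its second probe set, −0.30 for prpf31 and −0.57 for prpf4. This is not particular to these genes. Of the 122 probe sets called higher on day 5 with a log2 difference of at least 1, replicate 3 was the lowest mutant pool in 107 (87.7%), with a median shift of −0.49, and of the 192 called lower by at least that much it was the highest in 140 (72.9%), with a median shift of 0.54. Markers of photoreceptors and of the exocrine pancreas moved with it. The summed signal of 15 photoreceptor genes was 77015 in replicate 3 against 16821 and 40361 in replicates 1 and 2, and from 222740 to 297336 in day 5 siblings. The sum of 14 exocrine pancreas genes was 24410 in replicate 3 against 7442 and 4563, and from 107653 to 154261 in siblings. The neuron sum was also nearest to siblings in replicate 3 (69447 against 62946 and 66085, with 93219 to 100212 in siblings). The skeletal muscle sum of replicate 3, 842866, lay between those of replicates 1 and 2 (784077 and 867616). Its erythroid sum, 89498, was farther from siblings (67851 to 84281) than the 80992 and 81884 of the others. The source name of replicate 3 is also one of those that give day 4. What part these have in the order of the member genes was not tested. Without this pool the day 5 differences were −3.57 ± 0.18 for sart3, 2.90 ± 0.21 for prpf3, 2.76 ± 0.16 for prpf31 and 2.22 ± 0.11 for prpf4.

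Within the 3 sibling pools of day 5, the order of prpf31 was the reverse of that of sart3, but 3 pools are too few to show a relation. The pool with the most sart3 is replicate 2, whose source name gives day 4. The pool with 1771 at sart3 gave 800 at prpf31, that with 2036 gave 764 and that with 2586 gave 712. These steps are small beside the difference between mutants and siblings, and the day 3 siblings, level in sart3, gave 719 and 1126. prpf4 lay between 1028 and 1127 in the day 5 siblings, lowest in the pool with the most sart3, and the brighter prpf3 probe set was highest in the pool with the least sart3. The second prpf3 probe set ran otherwise, with 90.4 in the pool with the least sart3, 158 in the next and 115 in the pool with the most.

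The mutant pools also held less signal of cell types of the eye, brain and pancreas on both days. The photoreceptor sum ran from 43162 to 49787 in day 3 mutants and from 121020 to 143934 in day 3 siblings, and 13 of the 13 photoreceptor genes tested were called lower over both days. The pancreas sum ran from 3767 to 4657 in day 3 mutants and from 18101 to 24629 in day 3 siblings (12 of 13 called lower over both days). Of the 12, cel.1 passed the filter only through its sibling pools, with mutant means of 28.6 on day 3 and 164 on day 5. Its calls therefore add no support. The gene not called, pla2g1b, passed only through its day 5 siblings. The sum of 11 genes listed for neurons ran from 62946 to 69447 in the mutants of either day and from 83085 to 100212 in siblings (9 of 11 called lower over both days). Among the 9 is mbpa, a gene of myelinating glia, with the largest fall of the list (−1.1 ± 0.12 over both days). elavl3 and elavl4 were not called. Of all 7287 genes tested, 9.4% were called lower over both days and 8.26% higher. Fewer markers were called on day 3 alone. Called lower then were 6 of the 13 photoreceptor, 3 of the 13 pancreas and 4 of the 11 neuron genes. cel.1 is 1 of the 3, and no gene of these lists was called higher. The mean of pla2g1b was higher in day 3 mutants (138) than in day 3 siblings (52.2), both low, and it was not called (limma adjusted p = 0.34). Of all genes, 0.947% were called lower on day 3. The lowest marker signals were 16.7 for cel.1 and 19.4 for guca1c. cel.1 was low in 4 pools and guca1c in 5. Others were low in as many pools as cel.1 or more: ela2 in 4, opn1lw1 and pla2g1b in 6, cpa1 in 8 and hbbe3 in 9. These genes do not show whether the cell type was present in the pools where they were low. Skeletal muscle genes ran the other way (6 of 11 called higher over both days), and their day 5 sums overlapped between mutants and siblings. The sum of 5 erythroid genes ran from 64559 to 68140 in day 3 siblings and from 78822 to 82773 in day 3 mutants (2 of 4 tested called higher over both days and none on either day alone). On day 5 these sums overlapped, from 67851 to 84281 in siblings and from 80992 to 89498 in mutants. Most of the erythroid sum is hbae3, with signals from 54626 to 81924, and none of the other genes passed 9108. In whole embryos fewer cells of a type and less RNA per cell cannot be told apart, and the part of these changes in the rise of prpf3, prpf4 and prpf31 was not tested.

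The genes whose products meet the U4/U6 particle moved mostly as the 3 rising members did. Of 39 such genes tested in 5 lists, 23 were called higher over both days and 1 lower, with a median log2 difference of 0.69, against 8.26% of 7287 genes called higher and 9.4% called lower. The lists were drawn up with earlier results of these data known, so the counts describe the pathway and are not independent evidence. In 21 of the 23 that rose, mutant replicate 3 was the lowest of the 3 day 5 mutant pools, as for prpf3, prpf4 and prpf31. Over the whole array that held for 63.4% of probe sets called higher on day 5. With a log2 difference of at least 1 it held for 87.7%, so this order is not particular to these genes. In 20 of the 23, replicate 3 was also the lowest of all 5 mutant pools, for which the share over all probe sets was not computed.

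Of 12 genes of U4, U5 and the tri-snRNP 9 rose and none fell over both days (median 1.1). eftud2, the U5 GTPase, went from a mean signal of 1531 in day 3 siblings to 6705 in day 3 mutants and from 1029 to 5946 on day 5, a log2 difference of 2.28 ± 0.11 over both days. sart1, which joins U4/U6.U5, rose by 1.71 ± 0.12, snrnp27 by 1.64 ± 0.12 and prpf6, the U5 protein that Prpf31 contacts, by 1.43 ± 0.11. The partner that Prpf31 needs to bind U4, the small protein Snu13, is encoded by snu13a and snu13b. Over both days snu13a rose by 1.07 ± 0.22 (limma adjusted p = 5.8e-03), while snu13b had a log2 difference of 0.23 ± 0.08 (limma adjusted p = 0.062). On day 5 alone snu13b was called higher too, by 0.38 ± 0.1 (limma adjusted p = 0.022), and on day 3 it was not (0.09 ± 0.12).

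Of 10 genes that act on U6 snRNA or form its LSm ring, the ring that SART3 binds, 5 rose and 1 fell (median 0.53). lsm8, the subunit that marks the nuclear ring, went from 4592 to 19865 on day 3 and from 2804 to 19448 on day 5. lsm7 rose by 2.33 ± 0.17, ssb, the La protein that holds the tail of new U6, by 1.92 ± 0.12, and lsm6 by 1.30 ± 0.14. mepcea, a counterpart of the human enzyme MEPCE that caps small nuclear RNA, fell by 0.37 ± 0.12 (limma adjusted p = 0.047). The other 4 were not called: smx5, the LSm2 subunit of the ring, was at −0.12 ± 0.07, lower in mutants with no overlap on both days (limma adjusted p = 0.29), larp7 at −0.06 ± 0.12, usb1 at 0.14 ± 0.16 and tut1 at 0.30 ± 0.16.

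In the Sm ring, which U4 carries and U6 does not, 7 of 7 tested genes rose (median 1.70; 1 more of the list was on the array and too low to test), with the largest rises in snrpd3 (2.60 ± 0.17), snrpg (2.09 ± 0.16), snrpe (1.95 ± 0.12) and snrpf (1.70 ± 0.15). The proteins that enter with the tri-snRNP to form the B complex had a median of 0.13, and 1 of 9 rose: ik, at 0.69 ± 0.10 (limma adjusted p = 6.0e-04). coil, the Cajal body protein, where U4 and U6 are thought to be joined, rose by 0.49 ± 0.13 (limma adjusted p = 0.027), a call lost without any one of 6 of the 10 pools, among them both day 3 siblings; it was the only one of 3 listed SART3 partners with a named probe set here. On day 3 alone 18 of the 39 were called higher against 1.44% of genes (11 without sibling replicate 1 of that day), and on day 5 alone 23 against 7.68%.

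**Figure D4:**
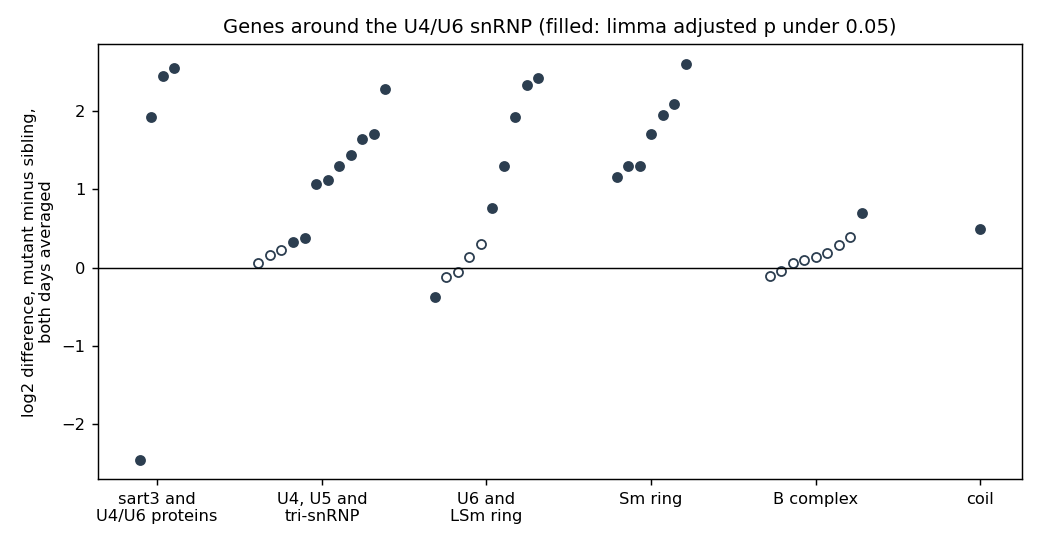
Log2 difference between mutants and siblings over both days for each tested gene, 1 point a gene, by list; filled points were called (limma adjusted p under 0.05). sart3 is the one point near −2.45, the U4/U6 proteins lie with the highest genes of the tri-snRNP, LSm and Sm lists, and the B complex genes lie between −0.11 and 0.69, with 1 of 9 called.

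For a view across the whole array, genes were ranked by how far their pattern over the 10 arrays lay from that of a member, as the root mean square difference of log2 values after each was centred on its own mean. Nearest to sart3 were gnb3b (0.48), pdcb (0.49), pde6ha (0.52), gngt1 (0.52) and opn1sw1 (0.53). gngt1 encodes a subunit of transducin, opn1sw1 the ultraviolet cone opsin, and pde6ha a subunit of the cone phosphodiesterase. Like sart3 they were higher in mutant replicate 3 of day 5 than in the other day 5 mutant pools, opn1sw1 by 1.95 on the log2 scale. The pattern of sart3 itself has a root mean square of 1.44. Nearest to prpf31, whose own root mean square is 1.30, were eftud2 (0.19), uspl1 (0.20), frg1 (0.22), snrpd3 (0.23) and lsm8 (0.24). prpf3 came at rank 7 (0.34) and prpf4 at rank 17 (0.41) in the same order. These distances describe 10 arrays that share 4 groups, and the split into mutants and siblings makes up most of each pattern.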

How the data were processed

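RNA of 10 pools of whole embryos was measured, 1 pool per array, each labelled from 7 micrograms of RNA. MAS5 made the deposited signal intensities, which are linear, per the submitters' processing notes; its version and scaling target were not given in the sources used here. On every array the 2% trimmed mean was 1500.4, so the authors had brought all arrays to one mean and each value is relative to its own array.

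Control probe sets (115 of 15617) were left out. The platform annotation gave 1 symbol to 10795 probe sets, several to 135 and none to 4572; 10711 had a gene ID in the RefSeq table, which updated 1 symbol. Coordinates are left out because the files name no genome build. All value columns were matched to a sample. The scale was log2(signal + 65), with 65 set at 10% of the median signal, 647.8, and understates changes at low signal. Probe sets in the lowest 25% of mean signal were dropped, leaving 11626 probe sets and 7287 genes (the brightest probe set of each). limma 3.58.1 in R 4.3.3 fitted 1 mean per group to all arrays, using eBayes with a trend on signal (6 residual and 6.52 prior degrees of freedom), with Benjamini-Hochberg adjustment over the kept probe sets. Errors of log2 differences are standard errors. The titles call the replicates biological but do not say whether pools share parents. The spread behind each p-value is that between pools, and the number of arrays limits the precision. The script was tested on simulated data.

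Groups came from the titles. On day 5 the deviations of same-numbered mutant and sibling pools from their group means correlated at 0.229 to 0.265, and on day 3 at −0.0472, so the numbers pair the pools on day 5 only, by the data and not by a label. Members, lists and tests were chosen with earlier results of these data known. Named are all member probe sets, up to 4 called genes a direction from each pathway list, the 5 genes nearest in pattern to sart3 and to prpf31, and, singled out after their values were seen, snu13a, snu13b, smx5, larp7, usb1, tut1, mbpa, elavl3, elavl4 and the lowest markers. Also singled out after their values were seen were hbae3, ela2, opn1lw1, pla2g1b, cpa1 and hbbe3. Alternatives were other pseudocounts (1 and 50% of the median), no filter, median centring, quantile normalization, a replicate block, no trend, array weights, each day alone, the conflicting label, each pool left out and, added after seeing the data, both pools with a day 4 source name left out, the second prpf3 probe set, and a permutation within same-numbered day 5 pools. The planned promoter search was not run, since no sequence was used here.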

Additional observations from a re-analysis of the deposited data

How the results depend on the processing

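Of 610 values of single member probe sets under 21 alternatives, 582 kept their side of the threshold, 18 lost a call and 10 gained one. No called value changed sign, but 13 values that were called under neither setting did, all of them differences between the days; following the strain label of sibling replicate 2 of day 3, the mutant day difference turned to 0.34 for prpf3 and 0.23 for prpf4. Counts of member probe sets here include the second of prpf3, which passed the filter through its mutant pools, so its calls add no support. The share of all probe sets called under each alternative is not given here. The counts below therefore do not show whether a gain or loss of calls is particular to these genes. The 5 calls over both days and on day 5 were kept when any one pool was left out, and with both pools of a day 4 source name left out. On day 3 leaving out 1 pool gave 3 to 5 calls, and following the strain label of sibling replicate 2 of day 3 instead of its title, 0 members and 0 pathway genes were called. That relabelling also left 0 members and 1 pathway gene called between the sibling days. Leaving out 1 pool gave 11 to 20 pathway genes on day 3, 0 to 2 members and 1 to 12 pathway genes between the sibling days, 0 to 1 members and 0 to 2 pathway genes for the difference between the days, and 0 to 1 members between the mutant days, where leaving out both pools of a day 4 source name gave 1, sart3. With the replicate number as a block, sart3 was also called on day 3 (limma adjusted p = 0.031), and no other member's call changed. Member pairs that differed numbered 3 to 5 of 6 without 1 pool, 0 with the replicate number as a block on day 5, and 0 without both pools of a day 4 source name, where the smallest p is 0.056. With no filter the count was 9 of 10, but the 4 pairs it adds rest on ppih, which was low in every pool, and are not read. Low signals limit ppih, the second prpf3 probe set in siblings and sart3 in day 5 mutants. Median centring moved all log2 differences by about 0.047 and turned no member's direction.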
